A study of Mus musculus with 4 samples.

Results

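The cytosolic ribosomal protein genes were taken as the autosomal protein-coding genes of GENCODE mouse release 21 whose symbol is Rpl or Rps with a number (optionally ending in a, l, x or y), together with Rplp0, Rplp1, Rplp2 and Rpsa, and without the ribosomal S6 kinases. These were 76 of 20807 autosomal coding genes, and 4 more on the X chromosome (Rpl10, Rpl36a, Rpl39 and Rps4x) were left out. Accessible chromatin was mapped by ATAC-seq, in which a transposase inserts sequencing adapters into open DNA, in E14 mouse embryonic stem cells (ESCs) grown in serum and LIF. There were 4 libraries, all of cells infected with pLKO lentivirus and selected with puromycin: 1 expressed a short hairpin RNA against GFP (shGFP) and 3 one against luciferase (shLuc replicates 1, 2 and 3). Both hairpins have no mouse target and serve as controls, and no untransduced cells were analysed here. Each library was a list of peak positions on mm10 with no height or score. A gene had a promoter peak in a library when a peak came within 1 kb of the start of any of its transcripts.

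Cytosolic ribosomal proteins coat the ribosomal RNAs of the large subunit (Rpl genes), which forms peptide bonds, and of the small subunit (Rps genes), which reads the mRNA. Their genes are highly expressed in growing cells, usually from compact promoters without a TATA box, and their mRNAs begin with a C followed by a run of pyrimidines, through which mTOR signalling controls their translation. Many of the genes carry small nucleolar RNAs (snoRNAs) in their introns, and the mouse genome holds many processed copies of them.

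Promoter sequence was taken from RefSeq (build GRCm38.p6), where 56 of the 76 genes matched by symbol. The stretches here run 5′ to 3′ on the gene's strand, from 100 bases before the RefSeq start through the following 20 bases. Capitals mark CCGGAAG (ETS and GABP type) and GGGCGGG (SP1 type) on either strand, and a tract of C followed by at least 4 pyrimidines that begins within 10 bases of the start. Rpl31, Rpl27a and Rps7 are shown because they had a promoter peak in all 4 libraries, Rps2 and Rps15a because they had it in 1, and Rpl35, Rpl38, Rps9, Rpl39l and Rpl3l because they had it in none.
Rpl31 (chr1:39367751-39367870, plus strand): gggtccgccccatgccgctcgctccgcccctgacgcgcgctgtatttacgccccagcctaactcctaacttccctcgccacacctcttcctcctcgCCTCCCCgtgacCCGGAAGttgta
Rpl27a (chr7:109519095-109519214, plus strand): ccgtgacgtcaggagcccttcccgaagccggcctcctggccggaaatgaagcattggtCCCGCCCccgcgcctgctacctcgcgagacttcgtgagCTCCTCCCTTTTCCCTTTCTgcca
Rps7 (chr12:28635934-28636053, minus strand): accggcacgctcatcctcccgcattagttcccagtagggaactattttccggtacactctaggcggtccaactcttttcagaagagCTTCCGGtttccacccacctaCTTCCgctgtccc
Rps2 (chr17:24719963-24720082, plus strand): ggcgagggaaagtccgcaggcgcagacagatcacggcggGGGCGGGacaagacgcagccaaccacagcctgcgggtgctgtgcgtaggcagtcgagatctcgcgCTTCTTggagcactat
Rps15a (chr7:118116128-118116247, minus strand): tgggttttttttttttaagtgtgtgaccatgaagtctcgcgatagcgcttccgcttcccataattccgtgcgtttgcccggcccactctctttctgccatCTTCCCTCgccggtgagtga
Rpl35 (chr2:39005112-39005231, minus strand): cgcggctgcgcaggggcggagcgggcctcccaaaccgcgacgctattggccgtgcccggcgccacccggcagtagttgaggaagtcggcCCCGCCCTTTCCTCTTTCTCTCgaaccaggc
Rpl38 (chr11:114668480-114668599, plus strand): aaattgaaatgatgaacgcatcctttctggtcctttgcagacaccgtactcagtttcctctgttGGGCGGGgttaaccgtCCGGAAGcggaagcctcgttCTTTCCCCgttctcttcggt
Rps9 (chr7:3703941-3704060, plus strand): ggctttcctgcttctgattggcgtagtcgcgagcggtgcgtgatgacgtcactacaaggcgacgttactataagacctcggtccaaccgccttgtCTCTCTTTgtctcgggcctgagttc
Rpl39l (chr16:10170128-10170247, plus strand): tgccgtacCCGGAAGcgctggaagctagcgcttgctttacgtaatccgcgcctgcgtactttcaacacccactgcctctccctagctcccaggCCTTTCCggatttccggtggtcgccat
Rpl3l (chr17:24727726-24727845, plus strand): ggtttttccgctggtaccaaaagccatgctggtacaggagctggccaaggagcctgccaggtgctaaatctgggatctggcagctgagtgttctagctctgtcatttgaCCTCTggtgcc
The stretches of Rpl35, Rpl38 and Rps9 carry a long pyrimidine tract at or beside the start, as does that of Rpl27a, so the tract was seen in genes with and without a promoter peak. A match is a description of letters and not evidence that a factor bound there.

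Most ribosomal protein genes had an accessible promoter in at least 1 library, and fewer than that had it in all 4. A promoter peak was found for 59 of 76 genes (77.6%) in shGFP, where the share of all autosomal coding genes was 61.9%. It was found for 42 (55.3%; all coding genes 48.4%), 59 (77.6%; 61.5%) and 46 (60.5%; 56.3%) in shLuc replicates 1, 2 and 3, a mean of 49 ± 8.89 genes (SD, n = 3) or 64.5% ± 11.7. Replicate 1 was the shortest list, with 17860 peaks against 31585 to 41943 in the others, and the depth behind the lists is unknown. shGFP exceeded the shLuc mean by 13.2 percentage points, slightly more than the SD, and its count equalled that of shLuc replicate 2. The difference was 8.55 points without shLuc replicate 1 (SD of the other shLuc libraries 12.1), 19.7 points without replicate 2 (SD 3.72) and 11.2 points without replicate 3 (SD 15.8). No test was run, since an exact permutation test of 1 against 3 cannot give a p below 0.25. Lists of equal length were made by keeping the widest peaks, and since the members' peaks were narrower than those of all coding genes, list length and selection by width changed together and cannot be told apart. In the widest 17860 peaks of each list, ribosomal protein genes had a promoter peak in 46.1% in shGFP and 55.3%, 47.4% and 39.5% in shLuc, against 48.4%, 48.4%, 47.4% and 47.2% of all coding genes.

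The 78 mitochondrial ribosomal protein genes (symbols starting with Mrpl or Mrps and a number), which encode the separate ribosome of mitochondria, had promoter peaks more often than the cytosolic ones in each library, at 94.9% in shGFP and 82.1%, 92.3% and 88.5% in shLuc. The share of cytosolic ribosomal protein genes spread over a wider range between libraries, and 34 of 76 lacked a peak in shLuc replicate 1 against 14 of 78 mitochondrial ones. The plot of shares by gene group shows replicate 1 lowest in all 4 groups.

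**Figure D1:**
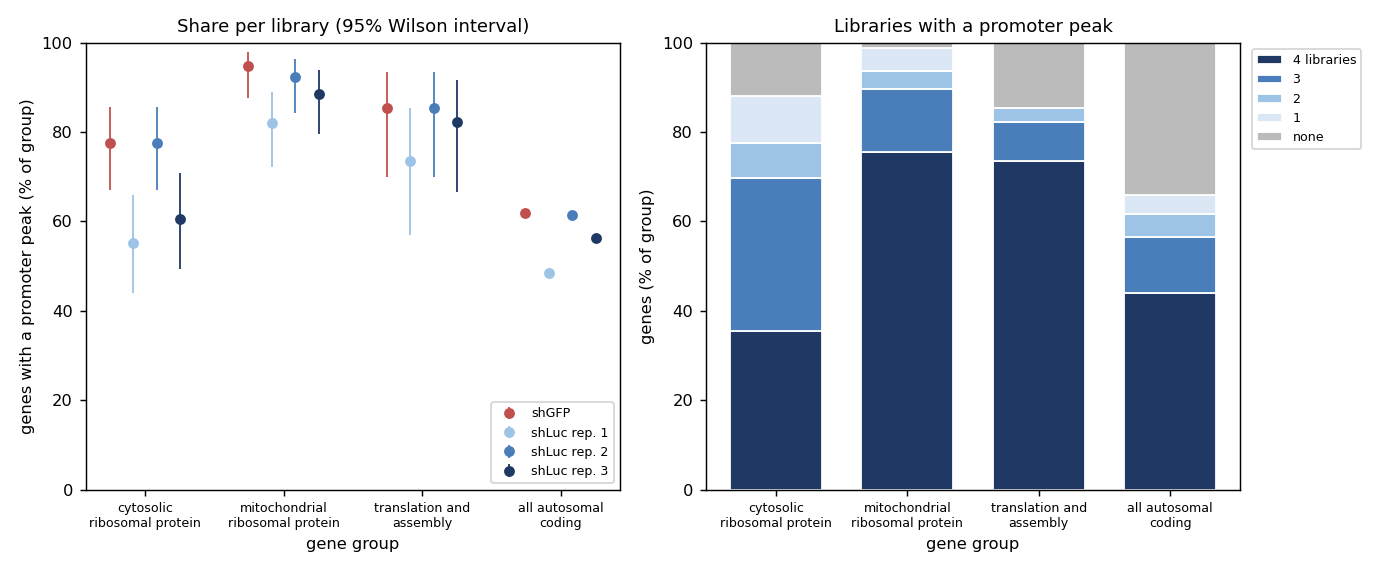
Left, percentage of genes with a promoter peak in each library by gene group, with 95% Wilson intervals that cover counting over genes only. Right, the same genes by the number of libraries with a promoter peak, from 4 (dark blue) to none (grey). The cytosolic group has 35.5% of its genes in the class of 4 libraries, against 75.6% of the mitochondrial group and 44.0% of all autosomal coding genes. The order of the cytosolic group and all coding genes in this class depends on shLuc replicate 1.

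Sorted by the number of libraries with a promoter peak, 27 of 76 ribosomal protein genes (35.5%) had it in all 4, where 44.0% of all coding genes did. A further 40 (52.6%) had it in 1 to 3, against 22.0% of all coding genes, and 9 (11.8%) had it in none, against 34.0%. Of the 67 genes with a peak in at least 1 library, 40.3% had it in all 4, whereas this share was 66.7% of all coding genes, 76.6% of mitochondrial ribosomal protein genes and 86.2% of the translation and ribosome assembly genes described below. These classes lean on shLuc replicate 1: without it, 42 genes had a peak in all remaining libraries and 23 in some. A peak in every library but replicate 1 was found for 19.7% of members and 9.68% of all coding genes. The lower share of members in all 4 libraries, 35.5% against 44.0%, therefore depends on that list.

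The genes with a promoter peak in all 4 libraries included Rpl5, Rpl6, Rpl7, Rpl15, Rpl18, Rpl21, Rpl22, Rpl24, Rpl26, Rpl27, Rpl27a, Rpl29, Rpl31, Rpl37, Rplp0 and Rplp1 of the large subunit, and Rps3, Rps6, Rps7, Rps13, Rps21, Rps25, Rps26, Rps27a, Rps27l and Rps29 of the small subunit. Among them were Rplp0, the base of the stalk that recruits elongation factors, Rps3, which lines the entry of the mRNA channel, and Rps6, the classic phosphorylation target downstream of mTOR. Both subunits were represented alike, with 16 of 46 large subunit genes (34.8%) and 11 of 30 small subunit genes (36.7%) in this class.

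The class of 3 libraries held 26 genes (34.2%; all coding genes 12.6%). Of these, 15 lacked a peak in shLuc replicate 1 only, among them Rpl4, Rpl9, Rpl10l, Rpl11, Rpl30, Rpl34, Rpl37a, Rpl41, Rplp2, Rps18, Rps19, Rps20 and Rps27. Another 9 lacked it in shLuc replicate 3 only, namely Rpl3, Rpl7a, Rpl14, Rpl23, Rps10, Rps14, Rps23, Rps24 and Rpsa. Rpl17 lacked it in shLuc replicate 2 only and Rps28 in shGFP only. Of the 2628 coding genes in the class of 3 libraries, 2015 lacked a peak in replicate 1 only and 464 in replicate 3 only. Replicate 1 was thus the missing library in a smaller part of the members' class than of that of all coding genes. Of the 42 genes with a promoter peak in replicate 1, 13 (31.0%) had none in replicate 3, against 7.49% of all coding genes and 7.81% of mitochondrial ribosomal protein genes in the same pair of libraries.

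The remaining genes were present in fewer libraries. With 2 libraries there were 6 genes (7.89%; all coding genes 4.96%), including Rpl35a and Rps16 in shGFP and shLuc replicate 1, Rps15 in shGFP and shLuc replicate 2, Rpl13 in shGFP and shLuc replicate 3, and Rpl28 in shLuc replicates 2 and 3. With 1 library there were 8 (10.5%; 4.41%): Rpl10a and Rps15a in shGFP, Rpl12 and Rpl32 in shLuc replicate 1, and Rpl13a, Rpl19, Rps2 and Rps12 in shLuc replicate 2. The 9 genes with no promoter peak included Rpl3l, Rpl8, Rpl23a, Rpl35, Rpl36, Rpl38, Rpl39l and Rps9. Over all 304 combinations of a gene and a library, which are not independent units, 206 had a promoter peak and 98 did not. In shGFP and shLuc replicates 1, 2 and 3 the shares were 77.6%, 55.3%, 77.6% and 60.5% of members. Those of all coding genes were 61.9%, 48.4%, 61.5% and 56.3%.

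**Figure D2:**
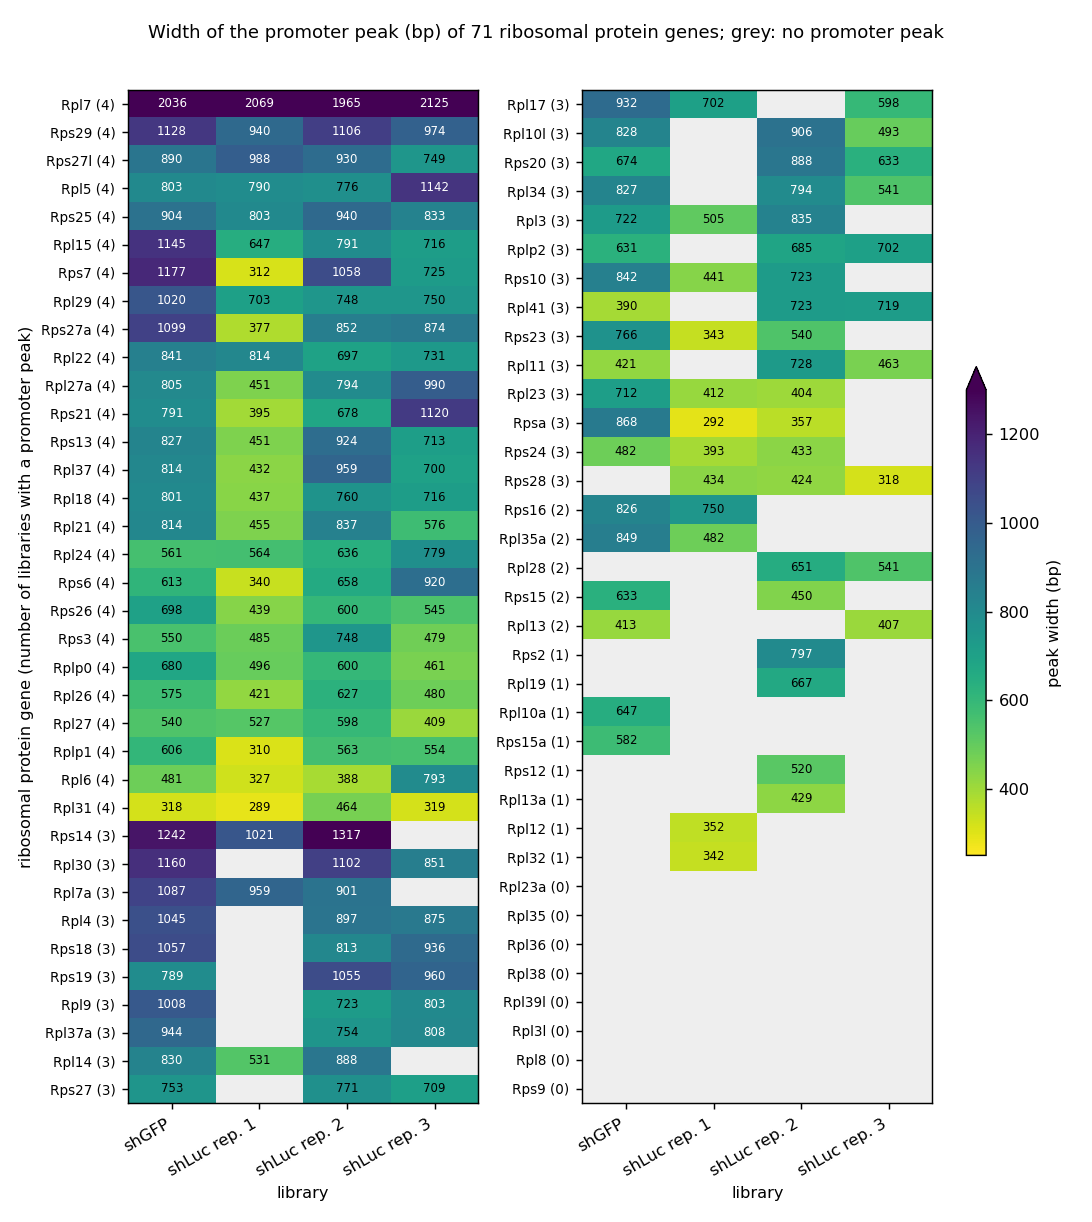
Width in bp of the widest promoter peak of 71 of the 76 genes (rows, with the number of libraries in brackets) in each library (columns), on a colour scale that ends at 1300 bp, with grey for no promoter peak. Rpl7 at the top stands apart with 1965 to 2125 bp, and the bottom 8 rows of the right panel are empty in every library.

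Promoter peaks of ribosomal protein genes were narrower at the median than those of all coding genes. Their median width was 803 bp in shGFP, where all coding genes with a promoter peak had 971 bp. In shLuc replicates 1, 2 and 3 it was 451, 748 and 718 bp, against 708, 936 and 900 bp of all coding genes. The mitochondrial ribosomal protein genes had medians of 830, 542.5, 740.5 and 714 bp in the same order, which also lay below those of all coding genes in each library. In shLuc replicate 1 the cytosolic median was 451 bp against 542.5 bp of the mitochondrial genes. The shLuc mean was 639 bp ± 163 (SD, n = 3), and without replicate 1 it was 733 bp ± 21.6 (SD, n = 2). The shGFP value lay about 1 SD above the former and more than 3 SD above the latter, whose SD rests on 2 libraries. Without replicate 2 the shLuc mean was 584 bp ± 188, and without replicate 3 it was 599.5 bp ± 210. The shGFP value lay about 1 SD above each of these. Of the 27 genes with a peak in all libraries, 19 (70.4%) had their narrowest one in replicate 1, and the same was true of 74.2% of all coding genes.

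Of the genes present in all 4 libraries, Rpl7 had the widest promoter peaks by mean width, at 2036 bp in shGFP and 2069, 1965 and 2125 bp in shLuc. Its peak reached from -1601 to 434 bp around the start in shGFP, where negative positions lie upstream, and from -1608, -1651 and -1652 bp in shLuc. Rps29 came next in this order with 1128 bp in shGFP and 940, 1106 and 974 bp in shLuc. Rps27l, a paralog of Rps27 known as a p53 target, had 890 bp in shGFP and 988, 930 and 749 bp in shLuc, and was widest in replicate 1, the library in which most other peaks were narrow. Rpl5, which with Rpl11 binds Mdm2 outside the ribosome, had 803 bp in shGFP and 790, 776 and 1142 bp in shLuc. Rps25 had 904 bp in shGFP and 803, 940 and 833 bp in shLuc. Rpl15 had 1145 bp in shGFP and 647, 791 and 716 bp in shLuc, and so was wide in shGFP alone.

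At the other end, Rpl31 had 318 bp in shGFP and 289, 464 and 319 bp in shLuc, the smallest mean of the genes present in 4 libraries. Its peaks began -35 bp from the start in shGFP and -29, -49 and -51 bp from it in shLuc, so almost the whole peak lay inside the gene. Rpl6 had 481 bp in shGFP and 327, 388 and 793 bp in shLuc. Rplp1, a stalk protein, had 606 bp in shGFP and 310, 563 and 554 bp in shLuc. Rpl27 had 540 bp in shGFP and 527, 598 and 409 bp in shLuc. Of these 10 genes, the shGFP width lay within the range of the shLuc libraries for Rpl5, Rpl6, Rpl7, Rpl27, Rpl31, Rps25 and Rps27l, and above it for Rpl15, Rplp1 and Rps29.

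Peaks sat close to the start. The median distance from the peak centre to the nearest start was 79 bp in shGFP and 71, 95 and 83.8 bp in shLuc, against 104, 87, 102.5 and 103.5 bp of all coding genes. In mitochondrial ribosomal protein genes it was smaller still, at 64.75 bp in shGFP and 62.25, 92.25 and 64 bp in shLuc. Members had a median of 6 annotated starts, against 3 of all coding genes. With the principal start alone, the members' median distance was 104 bp in shGFP and 102 bp at the shLuc mean. Relative to the start of the principal coding transcript, the median centre of ribosomal protein gene peaks lay at -41.5 bp in shGFP and at -3.75, -50.5 and -14 bp in shLuc. In all coding genes it lay inside the gene, at 79.5 bp in shGFP and 62.5, 74.5 and 76.5 bp in shLuc, and in mitochondrial ribosomal protein genes at 51.75, 56, 39.25 and 72.5 bp. In the translation and ribosome assembly genes described below it lay at 10 bp in shGFP and -31.5, 10.5 and 21 bp in shLuc, so in replicate 1 it was upstream there as well. The principal start was covered by the peak for 54 of 59 genes in shGFP (91.5%; all coding genes 83.0%). In shLuc it was covered for 35 of 42 (83.3%; 81.0%), 55 of 59 (93.2%; 82.8%) and 43 of 46 (93.5%; 82.4%).

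**Figure D3:**
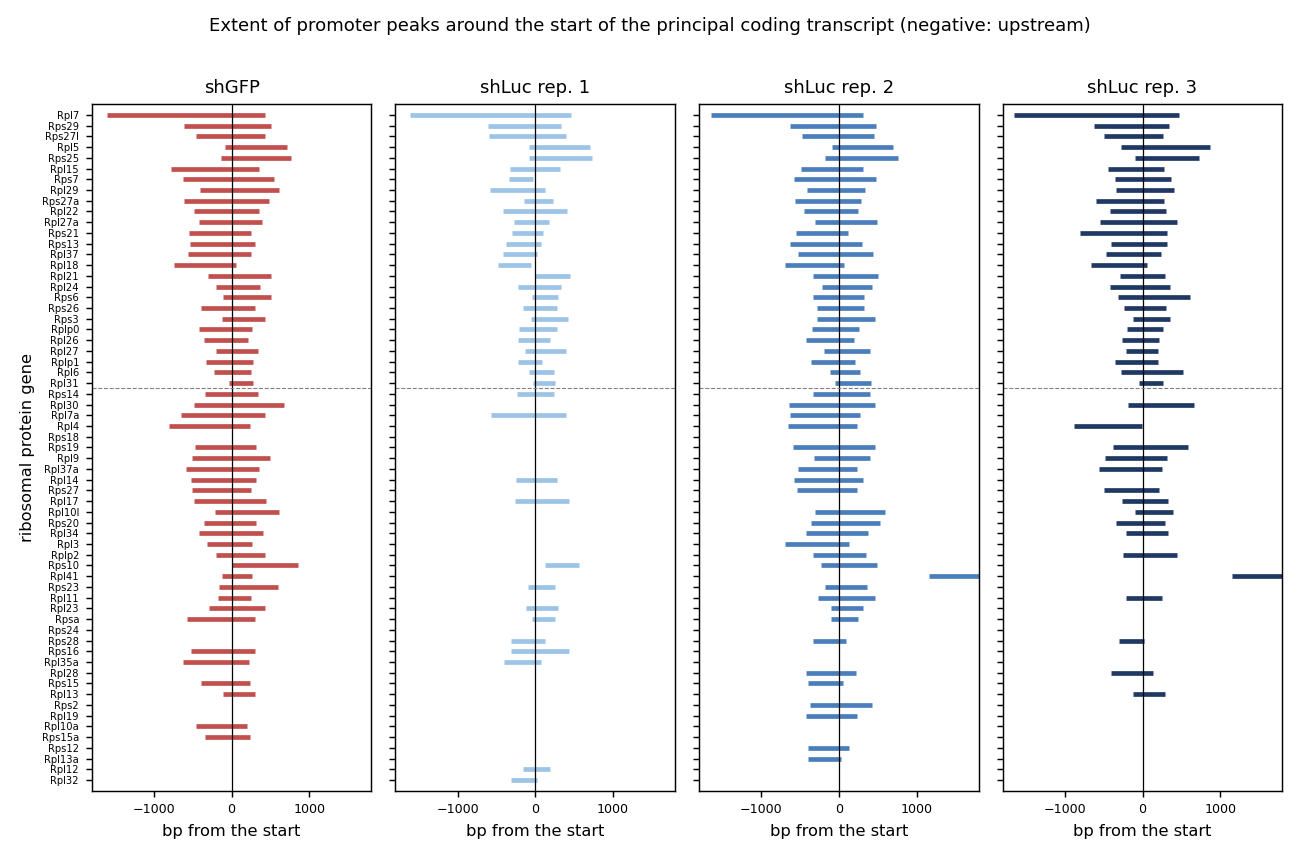
Extent of each promoter peak in bp around the start of the principal coding transcript (vertical line at 0, negative values upstream) for 63 ribosomal protein genes with a peak in at least 1 library, by library. The dashed line separates the 26 genes with a peak in all 4 libraries (above) from the others. Bars cross the line at 0 for most genes, and the rows of Rps18 and Rps24 are empty because their peaks lay farther from that start than 1800 bp.

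Where a peak missed the start it mostly stopped just short of it. In shLuc replicate 1 the peak of Rpl18 ended at -49 bp and that of Rps7 at -28 bp, whereas in the other 3 libraries the peak of both genes crossed the start. The Rps7 peak was 312 bp wide in replicate 1 and 1177, 1058 and 725 bp in shGFP and shLuc replicates 2 and 3. Rpl4, a protein that lines the exit tunnel, had a peak ending at -7 bp in shLuc replicate 3, where in shGFP and shLuc replicate 2 it ended at 236 and 239 bp. These genes count as present in all the libraries named.

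A few genes counted as present through a peak away from their main start. Rps18 had peaks of 1057, 813 and 936 bp in shGFP and shLuc replicates 2 and 3, which began 3586, 3735 and 3798 bp downstream of its principal start and 450, 599 and 662 bp downstream of the last annotated start, and no library had a peak within 1 kb of the principal start. Rps24 had peaks of 482, 393 and 433 bp in shGFP and shLuc replicates 1 and 2 that crossed its most upstream start, with their left edges at -3888, -3904 and -3914 bp from the start of the principal transcript. Rpl41 had a peak of 390 bp at its start in shGFP, but in shLuc replicates 2 and 3 its peaks of 723 and 719 bp began 1157 and 1149 bp downstream of it. Rpl3, which reaches towards the peptidyl transferase centre, had a peak at its principal start in shGFP (569 bp) and shLuc replicate 2 (835 bp), while the only peak counted in replicate 1 (505 bp) lay with its left edge at -8197 bp beside the start of Syngr1. Rps14 had peaks of 680, 478 and 742 bp at its principal start in shGFP and shLuc replicates 1 and 2. The same libraries had wider ones of 1242, 1021 and 1317 bp near a far upstream start, which they did not cover. A start of Ndst1 lies 745 bp from a start of Rps14. Counting peaks at the principal start alone would leave Rps18 and Rps24 with none, Rpl41 with 1 library and Rpl3 with 2, and change the class count of no other gene.

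Of the other genes present in 1 to 3 libraries, several had peaks as wide as those present in all 4. Rpl30 had 1160 bp in shGFP and 1102 and 851 bp in shLuc replicates 2 and 3, but none in replicate 1, where the nearest peak was 51345 bp from a start. Rpl7a had 1087 bp in shGFP and 959 and 901 bp in shLuc replicates 1 and 2, but none in replicate 3, where the nearest peak lay 7379 bp away. Rps19, the gene mutated most often in Diamond-Blackfan anaemia, had 789 bp in shGFP and 1055 and 960 bp in shLuc replicates 2 and 3. Rpl9 had 1008 bp in shGFP and 723 and 803 bp in shLuc replicates 2 and 3. Both Rps19 and Rpl9 lacked a peak in replicate 1, with the nearest peak 14203 bp from a start of Rps19 and 24212 bp from one of Rpl9. Wide peaks in some lists and none in another were therefore seen for the same gene. Among genes with a peak in 1 or 2 libraries, Rps2 had 797 bp in shLuc replicate 2, Rpl13a had 429 bp in the same library, and Rpl35a had 849 bp in shGFP and 482 bp in shLuc replicate 1.

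The members without a promoter peak in a library had their nearest peak closer at the median than all coding genes without one. It lay within 5 kb of a start for 7 of 17 in shGFP and for 4 of 34, 9 of 17 and 6 of 30 in shLuc. In shGFP the 17 such genes had their nearest peak at a median of 6016 bp from a start, against 16320.5 bp for all coding genes without one. In shLuc the medians were 14332.5 bp (34 genes), 4997 bp (17) and 11053.5 bp (30), against 34908, 16208 and 20383 bp. The largest distance was that of Rpl10l in shLuc replicate 1, 368318 bp, followed by Rps24 in replicate 3 with 88223 bp. Peaks seldom lay close together in these lists at all: only 3.93% of gaps between neighbouring peaks were under 5 kb in shGFP, and 1.29%, 3.29% and 2.35% in shLuc.

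**Figure D4:**
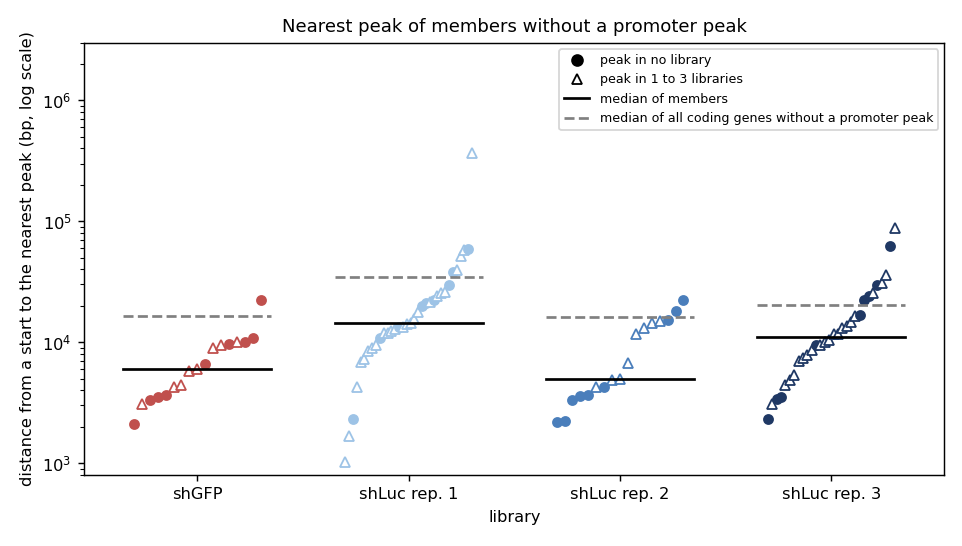
Distance in bp (log axis) from a start to the nearest peak, for each ribosomal protein gene without a promoter peak in a library (circles, genes without a promoter peak in any library; triangles, genes with one in another library). Solid lines are medians of these genes and dashed lines medians of all coding genes without a promoter peak; the solid line lies below the dashed one in each of the 4 libraries, for example at 6016 against 16320.5 bp in shGFP.

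For the 9 genes with no promoter peak anywhere, 32 of 36 nearest peaks (9 genes in 4 libraries) were within 1 kb of a start of another coding gene (88.9%). Over all 7079 coding genes with no promoter peak the same held for 31.0% of nearest peaks. Rpl35, at the exit of the nascent chain, was flanked in every library by the same peak, 2104 bp upstream in shGFP and 2329, 2184 and 2304 bp in shLuc, which covered a start of its divergent neighbour Arpc5l and was 623 to 1028 bp wide. Rpl36 had a peak at a start of 2410015M20Rik 3308 bp away in shGFP and 3324 and 3380 bp away in shLuc replicates 2 and 3, while in replicate 1 the nearest was 13257 bp away. Rpl8 had its nearest peak 3646 bp away in shGFP and 20911, 3679 and 16705 bp away in shLuc. Rpl23a had it 10874 bp away in shGFP and 10879, 2230 and 62048 bp away in shLuc, at a start of Proca1, Proca1, Tlcd1 and Sdf2 in turn. The 4 libraries thus had 3 different nearest peaks.

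Rpl38, whose loss in the mouse alters Hox mRNA translation and the skeleton, had its nearest peak at 6589 bp in shGFP and at 58548, 15273 and 24105 bp in shLuc. Rps9 had it at 9583 bp in shGFP and at 38189, 17992 and 9408 bp in shLuc. With Rpl39l, these were the 3 genes that remained without a peak when the distance was widened to 5 kb. The stretches of all 3 printed above include a pyrimidine tract, as do those of Rpl27a, Rpl31 and Rps7, which had a promoter peak in all 4 libraries.

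Paralogs were found in several classes. Rpl3l, a paralog of Rpl3 known from heart and skeletal muscle, had no promoter peak, and its nearest one lay 3522 bp away in shGFP and 19952, 3575 and 3535 bp away in shLuc. Rpl39l, known from testis, had none either, with a peak at Atf7ip2 at 22464 bp in shGFP and 22533, 22504 and 22312 bp in shLuc. Rpl10l, an intronless copy of Rpl10 that is active in the male germ line, did have a promoter peak in 3 libraries, of 828 bp in shGFP and 906 and 493 bp in shLuc replicates 2 and 3. Rps27l was present in all 4.

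Members that share a promoter with another gene had a peak in all 4 libraries in a lower share than the other members, and had a peak in none in a lower share too. Another coding gene had a start within 1 kb for 18 of 76 members (23.7%; all coding genes 14.9%), on the opposite strand for 17 of them. Of these 18, 4 (22.2%) had a promoter peak in all libraries, namely Rpl15 beside Nkiras1, Rpl18 beside Sphk2, Rps25 beside Trappc4 and Rps27a beside Clhc1. Of all coding genes with such a neighbour 70.5% did, and of mitochondrial ribosomal protein genes 79.4%. Of the 18 members, Rpl4, Rpl9, Rps18 and Rps27 lacked a peak in shLuc replicate 1 only, so their 22.2% depends in part on that short list. The mean number of libraries with a peak was 2.78 for the 18 members and 2.69 for the 58 others. Rps28, whose start lies 10 bp from that of Ndufa7, had peaks of 434, 424 and 318 bp in shLuc and none in shGFP, where the nearest was 6016 bp away. Rps27a, which encodes a fusion of ubiquitin with a small subunit protein, had 1099 bp in shGFP and 377, 852 and 874 bp in shLuc. Rps10, whose start is shared with the read-through gene RPS10-NUDT3 on the same strand, had 842 bp in shGFP and 441 and 723 bp in shLuc replicates 1 and 2. Rps27 beside Rab13 had 753 bp in shGFP and 771 and 709 bp in shLuc replicates 2 and 3. Rpl12 beside Lrsam1 had a 352 bp peak in shLuc replicate 1, and the Rps2 peak in replicate 2 lay beside Rnf151. Among the 58 members without such a neighbour, 23 (39.7%) had a peak in all libraries, against 39.3% of all coding genes without one. No library had a promoter peak for 1 of the 18 members with a neighbour (5.56%) and for 8 of the 58 without (13.8%), where all coding genes had 9.63% and 38.3%.

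The 27 members that carry an annotated snoRNA (35.5%; all coding genes 1.17%) had a promoter peak in all libraries in 7 cases (25.9%), and the 49 others in 20 (40.8%). Among all coding genes the snoRNA hosts had it more often than the rest, at 60.7% against 43.8%. Of 248 annotated autosomal pseudogenes named after 52 of the members, 0 overlapped a peak in all 4 libraries, 10 (4.03%) did in 1 to 3 and 238 (96.0%) in none. Over all 11594 annotated autosomal pseudogenes, which had a median length of 617 bp against 463 bp, these shares were 1.65%, 3.51% and 94.8%. Sequence around the members' starts was less often unique than that of the mitochondrial genes, with a median of 4.79% of words of 50 bases within 1 kb of the principal start found again elsewhere in the genome, against 0.102%. The highest shares were 21.6% for Rpl37a, 20.8% for Rps2 and 18.8% for Rps29. The medians by class were 4.41% for genes present in all 4 libraries, 5.74% for those in 1 to 3 and 2.41% for those in none, and whether repeated sequence has a part in the missing peaks was not tested.

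The promoter windows, from 250 bases before to 50 after the RefSeq start, were similar in GC content across the classes with most genes. Their median GC content was 57.7% in the 20 genes present in 4 libraries, 58.3% in the 31 present in 1 to 3 and 53.7% in the 5 present in none, and 57.3% both over the 56 members and over all 15686 coding genes with a window. The CpG ratio (observed over expected CpG) was higher in the members than in all coding genes, with a median of 0.89 against 0.61, and was 0.82 in the 69 mitochondrial ribosomal protein genes. A ratio of at least 1 was found in 14 members. Of these, 1 (7.14%), Rps26, had a promoter peak in all libraries and the other 13 in 1 to 3, while 75.4% of 1361 coding genes with such a ratio had it in all. Below that ratio the shares were 19 of 42 members (45.2%) and 43.5% of coding genes, but these groups differ in make-up. A ratio under 0.4 was found in 1 of these members but in 5734 of 14325 coding genes. Of those 5734 genes, 11.5% had a peak in all libraries. From 0.4 to 0.6 the shares were 5 of 6 members (83.3%) and 47.0% of coding genes. From 0.6 to 0.8 they were 5 of 12 (41.7%) and 66.2%, and from 0.8 to 1 they were 9 of 23 (39.1%) and 73.6%. Of the 13, Rpl4, Rpl9, Rpl34, Rpl37a, Rplp2, Rps18 and Rps27 lacked a peak in shLuc replicate 1 only, so the contrast at a ratio of at least 1 depends in part on that short list. These counts are small and the ratio of 1 was chosen after the values were seen.

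**Figure D5:**
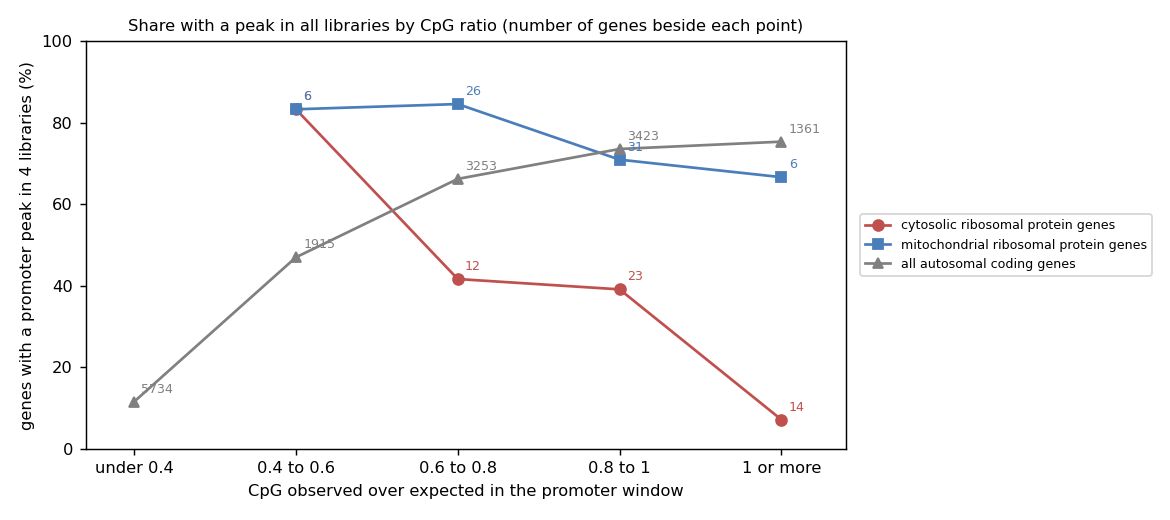
Percentage of genes with a promoter peak in all 4 libraries (vertical axis) by the ratio of observed to expected CpG in the promoter window (horizontal axis, in bins), with the number of genes beside each point; bins with 1 gene of a group are left out. The value for all autosomal coding genes climbs to 75.4% in the right-hand bin, whereas that for cytosolic ribosomal protein genes is 7.14% there (14 genes). Several of these 14 genes lacked a peak in shLuc replicate 1 only. Of the 4 cytosolic points, 3 rest on fewer than 20 genes.

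Of the sequence motifs, CCGGAAG on either strand was in 22 of 56 member windows (39.3%), in 36.2% of mitochondrial ribosomal protein gene windows and in 12.6% of all. By class it was in 12 of 20 genes present in 4 libraries (60.0%), among them Rpl31, Rpl27a and Rps7, in 7 of 31 present in 1 to 3 (22.6%) and in 3 of 5 present in none, Rpl35, Rpl38 and Rpl39l. GGGCGGG was in 42.9% of member windows, 42.0% of mitochondrial and 36.2% of all. AAGATGGCG (YY1 type) was in 3 member windows (5.36%; all 2.06%), those of Rpl13a, Rpl35a and Rps27, and TATAAA in 3 (5.36%; all 12.9%), those of Rplp0, Rps2 and Rps28. The SP1 and YY1 letters were sought on both strands, and the search for TATAAA on both strands covers TTTATA as well.

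A pyrimidine tract at the start is the sequence feature for which these genes are known. A C at the annotated start followed by at least 4 pyrimidines was found in 12 of 56 members (21.4%), in 0 of 69 mitochondrial ribosomal protein genes and in 2.18% of all coding genes. Within 10 bases of the start it was found in 31 members (55.4%), 43.5% of mitochondrial genes and 31.4% of all. The 12 genes were spread over the classes, with 3 of 20 present in 4 libraries (Rpl15, Rps6 and Rps21), 7 of 31 present in 1 to 3 and 2 of 5 present in none (Rpl35 and Rpl38). The tract within 10 bases was found in 10 of 20 (50.0%), 16 of 31 (51.6%) and 5 of 5 genes of these classes in turn. In shGFP the whole window of 300 bases lay inside a peak for 31 of the 56 members (55.4%; 43.7% of the 15686 coding genes with a window), partly for 10 and not at all for 15. In shLuc these counts were 14, 15 and 27 in replicate 1, 33, 8 and 15 in replicate 2, and 19, 12 and 25 in replicate 3. The whole window was in a peak for 25.0%, 58.9% and 33.9% of members in these libraries and for 25.7%, 41.7% and 36.9% of all coding genes. The RefSeq start can lie away from the principal start. That of Rpl18, for example, was at 45718071 on chromosome 7, where its principal start was at 45715457. Its window had 0 bases in a peak in each library, although the gene counts as present in all 4.

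Other genes of translation and ribosome assembly, a list of 35 genes of which 34 are autosomal, had a promoter peak in all libraries in 25 of 34 cases (73.5%), in 1 to 3 in 4 and in none in 5. Those without any included Fau, which encodes a ribosomal protein fused to a ubiquitin-like protein, the elongation factors Eef1b2 and Eef2, and Nop10 of the snoRNA particles. As a check of the cell type, promoter peaks were counted at 9 ESC markers and 7 markers of other cell types. Zfp42 of the former and Sox17 of the latter were present in all 4 libraries, while 5 of the former (Pou5f1, Nanog, Sox2, Tdgf1 and Dppa5a) and 5 of the latter were present in none. The labelled cell type could not be checked from these counts, and no expression was measured in these libraries.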

How the data were processed

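The authors made 1 ATAC-seq peak list per library, and the deposited files give the chromosome, start and end of each peak, with no score. The submitters' processing notes name bcl2fastq, Bowtie2, MACS2 and mm10. Peak calling settings, duplicate removal and any shift for the transposase are not given in the sources used here. A shorter list may come from fewer reads, so absence of a peak is not closed chromatin.

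Starts were those of all transcripts in GENCODE mouse release 21. The widest peak within 1 kb of a start gave the width. The principal start was that of the principal coding transcript. Sequences came from RefSeq promoters and the GRCm38.p6 genome, whose lengths contained all peaks of the 21 chromosomes. Python 3.11.15, numpy 2.4.6, scipy 1.17.1, numba 0.67.0 and matplotlib 3.10.9 were used. Calls were tested on simulated data (2000 of 2000 genes right). No test between hairpins was run. The labels do not say whether the shLuc libraries came from separate cultures.

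Ribosomal protein genes were named with their class, except a few that are not reported here by name and are left out of the plots by gene. Values in full were given for the 6 widest and 4 narrowest in 4 libraries, the 8 widest and 8 farthest off the start in 1 to 3 libraries, the 6 nearest to and 6 farthest from a peak in none, genes with a shared promoter, and paralogs, and further genes were named after their values were seen. The members, lists and rules were chosen with earlier results of these data known. Alternatives were a distance of 500 bp or 5 kb, coding transcripts only, the widest 50% or equal numbers of peaks, peak centres, subsets of members, and leaving out each shLuc library.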

Additional observations from a re-analysis of the deposited data

How the results depend on the processing

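Of 144 values (12 results under 12 alternatives), 120 stayed within the spread between shLuc libraries, a binomial interval or 1.5 times a count. Leaving out an shLuc library cannot change a result of shGFP alone, so the 120 include values that were fixed in advance. Leaving out 1 shLuc library gave 28 (replicate 2) to 42 genes (replicate 1) present in every library left, and 23 (replicate 1) to 35 (replicate 2) present in some. In the widest 50% of each list the shLuc mean was 27.7 genes in place of 49, with 8 genes present throughout and 24 absent, the excess over all coding genes was 0.351 points in shGFP and -5.75 points in shLuc, the median shLuc width was 807 bp, and the median offset was 106 bp in shGFP and 103 bp in shLuc. In lists of equal length shGFP had 35 genes, with 14 genes present throughout and 18 absent, the excess was -2.39 points in shGFP and -0.284 points in shLuc, shGFP lay at -1.32 points from the shLuc mean, and the offsets were 108 and 101 bp. Both of these keep fewer and wider peaks by construction. Within 5 kb, 3 genes had no peak and the offsets were 106 and 119 bp. With the principal start alone, an alternative chosen after seeing the data, the offsets were 104 and 102 bp. Without members that share a promoter the shLuc offset was 69.2 bp. No paired analysis was possible because shGFP has 1 library and no test compares the hairpins. Depth is unknown and limits what a missing peak means.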
